A study of Mus musculus with 143 samples.

Results

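Of 143 sorted microglia, 45 carried Cd74 RNA at 10 or more CPM (counts scaled to a total of 1000000 gene counts, with spike-in RNA left out of the total), and 92 had no Cd74 count at all. These are called the Cd74 expressing and the Cd74-negative cells. A further 6 cells had Cd74 counts under 10 CPM and were kept apart. The members were chosen by their measured level of Cd74, so Cd74 itself is described without a test, and so is every difference below, because all cells came from 1 pool of animals and cells of 1 pool are not replicates.

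The cells came from the cerebellum of wild type C57BL/6N mice at postnatal day 7, and all came from male animals that were pooled, so no value can be traced to 1 animal. Day 7 follows the age label, although the pooled library carries "adult" in its name. Per the labels' protocols, the tissue was dissociated by douncing on ice, myelin was removed with magnetic beads, and live single cells were sorted as CD45 low, CD11b+, Gpnmb+ and Clec7a+. That gate enriches for microglia of the developing white matter, so each statement below is about cells inside it. Full-length cDNA was made by the Smart-seq2 method in 96-well plates, 95 cells on 1 plate (plate 1) and 48 on another (plate 2).

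Cd74 encodes the invariant chain, a membrane protein that binds new MHC class II molecules in the endoplasmic reticulum, blocks their peptide groove and steers them to endosomes, where cathepsins cut it away. It also reaches the cell surface, where it binds the cytokine MIF together with CD44 or a chemokine receptor. In professional antigen-presenting cells the gene is switched on with the class II chains by the coactivator CIITA, and in the brain it is best known from border-associated macrophages and from microglia that respond to interferon gamma or to injury.

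Total counts per cell, spike-ins included, ran from 271190 to 1226521 with a median of 760690. No pair of cells had identical values. Median gene counts were 727276 in expressing and 760135 in negative cells on plate 1, and 642419 and 668773 on plate 2. The expressing cells had more genes with a count, with medians of 3462 and 3092 on plate 1, and of 3370.5 and 3200 on plate 2. The gap was still there after each cell was thinned to 259613 gene counts, the lowest of any cell, with 3343 and 2991 genes on plate 1, and 3264 and 3092 on the other. Gene counts per spike-in count, a measure of RNA per well, had medians of 25.8 and 23.2 on plate 1 and of 26.8 and 25.8 on plate 2. Their part in the differences below was not tested.

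The share of cells in the expressing class was 31.5% (95% exact binomial interval 24 to 39.8). It was 32.6% on plate 1 (31 of 95 cells) and 29.2% on plate 2 (14 of 48 cells). Intervals here and below are Clopper-Pearson intervals and cover counting error only, since reads carried no molecular identifiers and cells shared a pool. The plates gave nearly the same share, and the interval of each held the value of the other, 23.4 to 43 on plate 1 and 17 to 44.1 on plate 2.

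Within the expressing class the Cd74 level was 21.8 CPM in the lowest cell, 67.8 in the median cell and 393.2 in the highest, with quartiles of 51.7 and 98.9. These levels rested on 11 to 191 Cd74 counts per cell, with a median of 48. On plate 1 the lowest, median and highest levels were 21.8, 60.6 and 193.0 CPM. On plate 2 they were 25.5, 73.02 and 393.2 CPM. The levels of both plates overlapped over most of their range. Around the limit, the lowest expressing cell was at 21.8 CPM and the highest cell below it at 8.1 CPM, so no cell lay between these values. The 6 cells under the limit held 1 to 6 Cd74 counts, at 1.2 to 8.1 CPM.

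**Figure D1:**
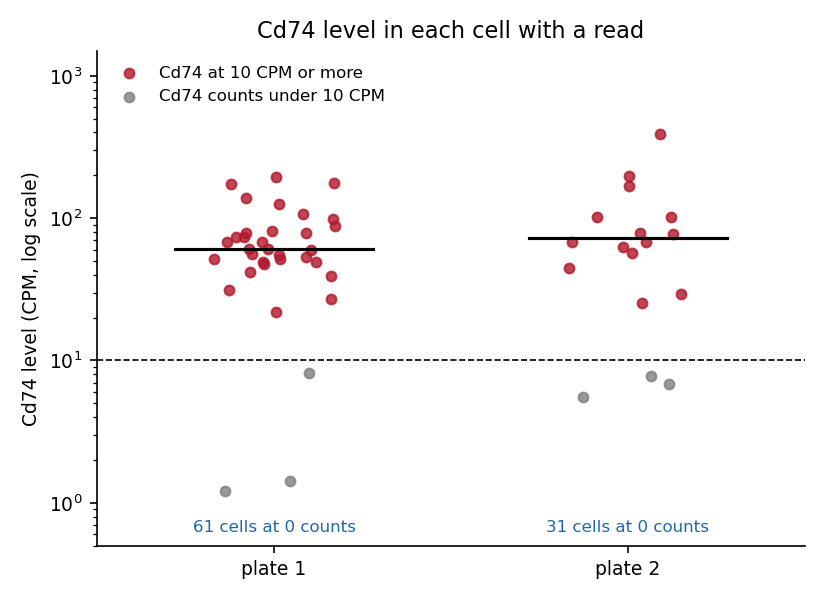
Cd74 level of each cell with a Cd74 count, in CPM on a log axis, for plate 1 and plate 2. Red points are the 45 expressing cells, grey points the 6 cells under the dashed limit of 10 CPM, the black lines mark the median of the expressing cells on each plate (60.6 and 73.02 CPM), and the 92 cells at 0 counts are given as numbers.

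Cd74 was read in 35.7% of all cells, including those under the limit. Genes of like abundance give a measure of how often such a gene is caught at all. The 1325 genes within 1.25-fold of its pooled level of 25.3 CPM (the summed counts of all cells, scaled to CPM) were read in a median of 21.0% of cells, with quartiles of 17.5 and 27.3. Cd74 was read in more cells than most of them, and 9.89% of the 1325 were read in more. The 9 spike-in RNAs within 2-fold of that level, which were added to every well, were read in 10.5% to 54.5% of cells, with a median of 24.5%. A count of 0 for Cd74 therefore does not show that a cell lacked the RNA, and the negative class may hold cells whose Cd74 RNA was missed.

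The first question is whether the cells with Cd74 RNA also carried the molecules it serves. A class II chain was read in 17.8% of them and in 19.6% of the Cd74-negative cells. Of 14 class II genes in the table (chains, peptide exchange factors and the factors that transcribe them), 12 were read in some cell and 6 passed the filter for comparison, a pooled level of 10 CPM or more and a read in at least 10% of cells. None of the 6 was at least 1.5-fold higher on both plates, and none was 1.5-fold lower on both. Over all 7214 genes that passed the filter, 4.63% were higher and 5.81% were lower by that measure. The median log2 ratio of the 6 genes was -0.08 (plate 1 -0.07, plate 2 -0.21), beside 0.03 for all genes (0.02 and 0.01). Ratios are expressing over negative cells, of pooled CPM with 1 added, which understates the difference of low genes.

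H2-Ab1, the class II beta chain of the I-A molecule, lies on chromosome 17 from 34257689 to 34269419 on the plus strand (mm10, GENCODE). It was read in 8 of 45 expressing cells (17.8%, interval 8.0 to 32.1) and in 17 of 92 negative cells (18.5%, 11.15 to 27.9). Where read, it lay between 104.7 and 362.5 CPM in expressing cells (median 130.3) and between 3.6 and 454.6 in negative cells (median 143.5). The classes overlapped throughout. Pooled, it stood at 33.6 CPM (95% Poisson interval 31.6 to 35.7, counting error only) against 29.5 (28.2 to 30.8), with a log2 ratio of 0.58 on plate 1 and -0.53 on plate 2. The 8 cells with both genes compare with 8.21 if the reads of H2-Ab1 fell on the cells of both classes without regard to Cd74.

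Its partner chain and the other class II pair were almost unread. H2-Aa, the alpha chain of I-A, was read in 0 of 45 expressing cells and in 1 of 92 negative cells, with 1 count. H2-Eb1, the I-E beta chain, was read in 0 of 45 and 2 of 92 cells, and H2-Eb2 in none. A count of 0 in 45 cells allows a share of up to 6.67% when taken as 3 cells, and of up to 7.87% by the exact binomial interval, so a few such cells could have been missed. No expressing cell had reads of more than 1 of H2-Aa, H2-Ab1 and H2-Eb1, and 1 negative cell had all 3. Any of the 3 chains was read in 17.8% of expressing and 19.6% of negative cells (12 to 29.1).

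The peptide exchange factors were read in both classes. H2-DMa, a chain of the DM complex that swaps the invariant chain's last fragment for antigenic peptide, was read in 10 expressing cells (22.2%) and 21 negative cells (22.8%). Its pooled level was 30.7 against 39.9 CPM, and the plates differed in sign, at log2 -0.73 and 0.29. H2-DMb1, its partner chain, was read in 17 expressing (37.8%, interval 23.8 to 53.5) and 39 negative cells (42.4%, 32.1 to 53.1), at 48.6 and 60.7 CPM pooled. Both DM chains thus lay at or below the negative class over all cells, by less than 1.5-fold. H2-DMb1 has a near-identical neighbour, H2-DMb2, read in 2 and 8 cells, and the counting may split reads between them. H2-Ob, a chain of the DO complex that holds DM back, was read in 6 of 45 and 10 of 92 cells, with 16.03 against 19.2 CPM. H2-Oa, its partner, was read in 2 and 5 cells.

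**Figure D2:**
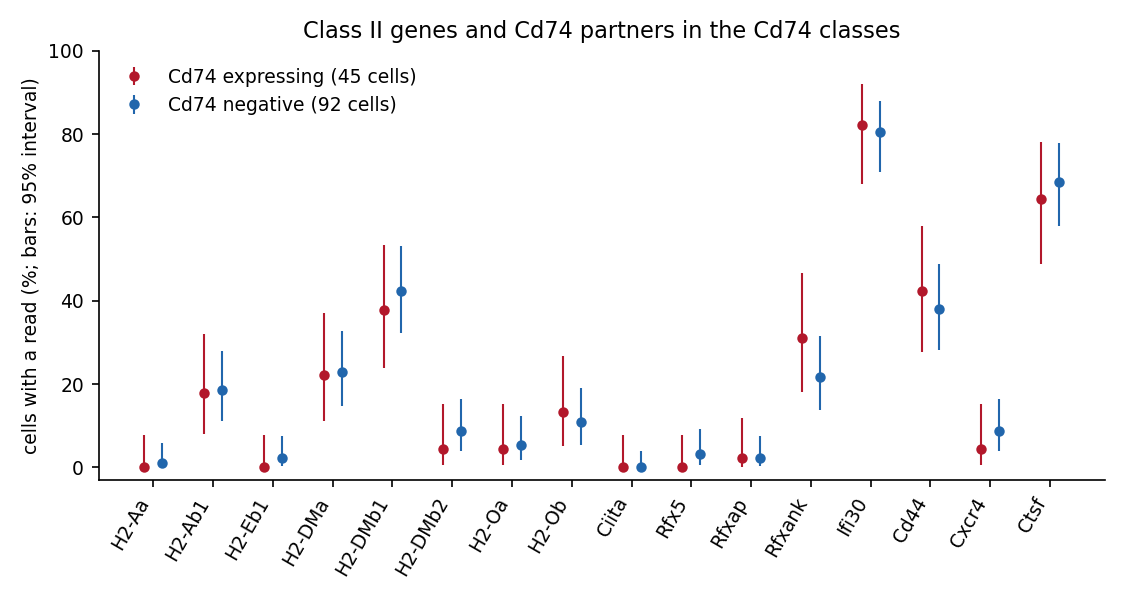
Share of cells with a read of each class II gene and of Cd74 partners that were not read in every cell, in percent, for the 45 Cd74 expressing (red) and 92 negative cells (blue). Bars are 95% exact binomial intervals for counting error, and they overlap for every gene shown.

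The transcription factors of class II genes gave few reads. Ciita, the coactivator named above, had no count in any of the 143 cells, which allows a share of up to 2.1% of cells when taken as 3 cells and of up to 2.55% by the exact interval. Rfx5 and Rfxap, subunits of the RFX complex that binds class II promoters, were read in 0 and 1 expressing cells and in 3 and 2 negative cells. Rfxank, the other subunit, was read in 14 of 45 expressing and 20 of 92 negative cells, with overlapping intervals. Ifi30, the lysosomal thiol reductase that opens antigens for class II, was the most widely read gene of the list, in 37 of 45 and 74 of 92 cells. Its median level was 179.3 CPM in expressing and 189.2 in negative cells, with highest cells of 1104 and 771.4, and its pooled log2 ratio was 0.08.

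Few cells bear on class II reads at the highest Cd74 levels, so their counting error is wide. Among the 10 cells with the highest Cd74 levels, H2-Ab1 was read in 0, H2-DMa in 3 and H2-DMb1 in 3. Among the highest 20 they were read in 2, 8 and 6, beside 17.8%, 22.2% and 37.8% of the whole class. H2-DMa was thus read mostly in the upper part of the class, in 8 of the highest 20 and in 10 of all 45. With expressing cells at 100 CPM or more, its log2 ratio was 0.62 in place of -0.37, whereas that of H2-DMb1 was -0.63. Of the 11 cells at 100 CPM or more, 0 had a read of H2-Aa, H2-Ab1 or H2-Eb1, beside 8 of 45 in the whole class. With 11 cells, the share may still be that of the class. No gene followed the Cd74 level closely. The highest rank correlation over cells, taken as the smaller of both plates' values over all compared genes, was 0.35, under the limit of 0.4 set for naming a gene. Zeros in both genes hold such values low and tie most ranks.

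The proteases that cut the invariant chain and its signalling partners leaned slightly lower in expressing cells. Of 8 genes in the table, 6 were compared, and 0 were 1.5-fold higher or lower on both plates. In any size, 5 were lower and 0 higher on both plates, beside 50% of all genes with the same direction on both. The median log2 ratio was -0.17. With counts scaled to spike-ins it was -0.02, beside 0.15 for all genes. Ctss, cathepsin S, which makes the last cut before peptide loading, had reads in all cells, and its median level was 2226 CPM in expressing and 2395 in negative cells. Ctsl and Lgmn, a cathepsin and an asparaginyl endopeptidase of the same pathway, had log2 ratios of -0.21 and -0.13. Ctsf, another cathepsin that can cut the invariant chain, stood at -0.52, lower on both plates (-0.41 and -0.70) but not by 1.5-fold on plate 1.

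Mif, the ligand of surface CD74, was read in every cell. Its median level was 549.7 CPM in expressing and 469.4 CPM in negative cells, with highest cells of 1213 and 1061, so the classes overlapped. The log2 ratio was 0.31 on plate 1 and -0.01 on plate 2. Cd44, the signalling co-receptor, was read in 19 of 45 expressing and 35 of 92 negative cells, with a log2 ratio of -0.42. The chemokine co-receptors Cxcr4 and Cxcr2 were read in 2 and 0 expressing cells and in 8 and 2 negative cells.

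MHC class I genes, which present peptides of the cell's own proteins, showed no member past 1.5-fold on both plates among 16 compared, and a median of -0.14. B2m, the light chain of class I molecules, had reads in all cells, with medians of 1340 and 1526 CPM. Tapbp, tapasin, which holds class I molecules to the peptide transporter, was lower on both plates (log2 -0.90 and -0.51), with a median of 126.1 CPM in expressing cells against 287.8 in negative cells, although both classes ranged up to about the same height (929.2 and 932.8 CPM). The class I heavy chains share long stretches of sequence, so single values for them depend on how reads were assigned. Of 14 interferon-induced genes and receptors compared, 1 was higher on both plates, beside 4.63% of all genes, and the median was -0.01. It was Xaf1, read in 7 of 45 and 11 of 92 cells. None of the 14 was lower past 1.5-fold on both plates.

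The costimulation and checkpoint list had 10 genes compared, 0 higher and 2 lower on both plates, beside 5.81% lower over all genes, with a median of -0.06. Cd86, the costimulatory ligand best known from activated myeloid cells, had medians of 459.8 CPM in expressing and 422.6 CPM in negative cells. Lag3, a checkpoint receptor that binds class II, was read in 29 of 45 expressing and 67 of 92 negative cells, at medians of 147.8 and 241.2 CPM. Its pooled level was 210.1 against 379.8 CPM, a log2 ratio of -0.85 (-0.89 and -0.75). The other was 4632428N05Rik, the older symbol of the checkpoint ligand VISTA, with medians of 59.1 and 175.9 CPM and a log2 ratio of -0.95 (-0.98 and -0.88). Both were lower in the expressing class on each plate, while the cells of both classes overlapped.

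None of the 4 genes of the gate differed between the classes by 1.5-fold on both plates. Gpnmb, a glycoprotein of lysosome-rich phagocytes and 1 of the proteins in the gate, had medians of 3083 and 3859 CPM and a log2 ratio of -0.07. Clec7a, the beta-glucan receptor dectin-1 and the other gate protein, had medians of 340.8 and 332.9 CPM and a ratio of -0.04. Ptprc and Itgam, which encode CD45 and CD11b, had ratios of -0.29 and -0.25. Of 26 genes of white matter and disease-associated microglia, 0 were higher and 2 lower on both plates. Over all genes 4.63% were higher and 5.81% lower. The 2 were the chemokines Ccl3 (-0.72) and Ccl4 (-0.95), and the list's median was -0.04. Ccl3 was nevertheless read in a larger share of expressing cells (62.2%) than of negative cells (50.0%). Lgals3, galectin-3, was higher on both plates at 0.49 and 0.41, under the limit.

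The homeostatic list, genes of resting adult microglia, leaned lower. Of 21 compared, 15 were lower and 2 higher on both plates in any size, beside 50% of all genes with the same direction on both. Only 2 were lower by 1.5-fold, beside 5.81% of all genes. The median log2 ratio was -0.44 (plate 1 -0.41, plate 2 -0.10). Mertk, a receptor for apoptotic cells, had medians of 30.0 and 82.5 CPM and a ratio of -0.94 (-1.06 and -0.66). Crybb1, a crystallin of young microglia, stood at -0.70, with reads in 24.4% and 26.1% of cells. Sall1, whose protein keeps microglia in their resting identity, had reads in 23 of 45 and 58 of 92 cells, with -0.49 and -1.72 on the plates. Csf1r, the survival receptor, was read in every cell with medians of 1624 and 1990 CPM, and its ratio was -0.64 on plate 1 and -0.08 on plate 2. Cx3cr1, the fractalkine receptor, stood at -0.41 and -0.02, and P2ry12, a nucleotide receptor, at -0.60 and 0.02, so these 3 widely read members were lower on plate 1 and near 0 on plate 2. With counts scaled to spike-ins the list median was -0.29, beside 0.15 for all genes.

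Lists of function gave small medians. Lysosomal genes (24 compared) had 0 members past 1.5-fold on both plates and a median of -0.11, with 13 members lower and 2 higher on both plates in any size. Uptake receptors (21 compared) had 0 higher and 1 lower, Mertk, and -0.03, and complement genes (8 compared) had 0 and -0.02. Glycolysis (14 compared) had 0 past the limit and a median of 0.00, and lipid handling (17 compared) 0 and -0.02. The respiratory chain (18 compared) had 0 and 0.21, with 7 members higher and 1 lower on both plates in any size. Over all genes, 50% had the same direction on both plates. With counts scaled to spike-ins, the lysosomal median was 0.06 and that of the respiratory chain 0.32, beside 0.15 for all genes. Of 16 myeloid transcription factors, 1 was lower on both plates, Bhlhe40, and the median was -0.31.

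Secreted signals differed member by member. Of 10 chemokine and cytokine genes compared, 2 were higher and 4 lower on both plates, 6 of 10 in either direction. Over all genes the share in either direction was 10.4%. It was 18.5% of genes read in 10% to 25% of cells, 9.56% in 25% to 50% and 3.41% in 50% to 75%. Cxcl16, a membrane-bound chemokine that also acts as a scavenger receptor, was read in 13 of 45 expressing cells (28.9%, interval 16.4 to 44.3) and 11 of 92 negative cells (12%, 6.12 to 20.4), with a log2 ratio of 1.16. Pf4, platelet factor 4, a chemokine of platelets and tissue macrophages, was read in 11 of 45 (24.4%) and 11 of 92 cells, with a ratio of 1.20. Il1a, an interleukin 1 cytokine, was lower at -0.85, Cxcl14 at -0.68, and Ccl3 and Ccl4 as given above. All of these but Ccl3 were read in fewer than 30% of all cells, so a handful of cells carries each pooled value. The list was drawn up with results of these cells known, and its count is a description.

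**Figure D3:**
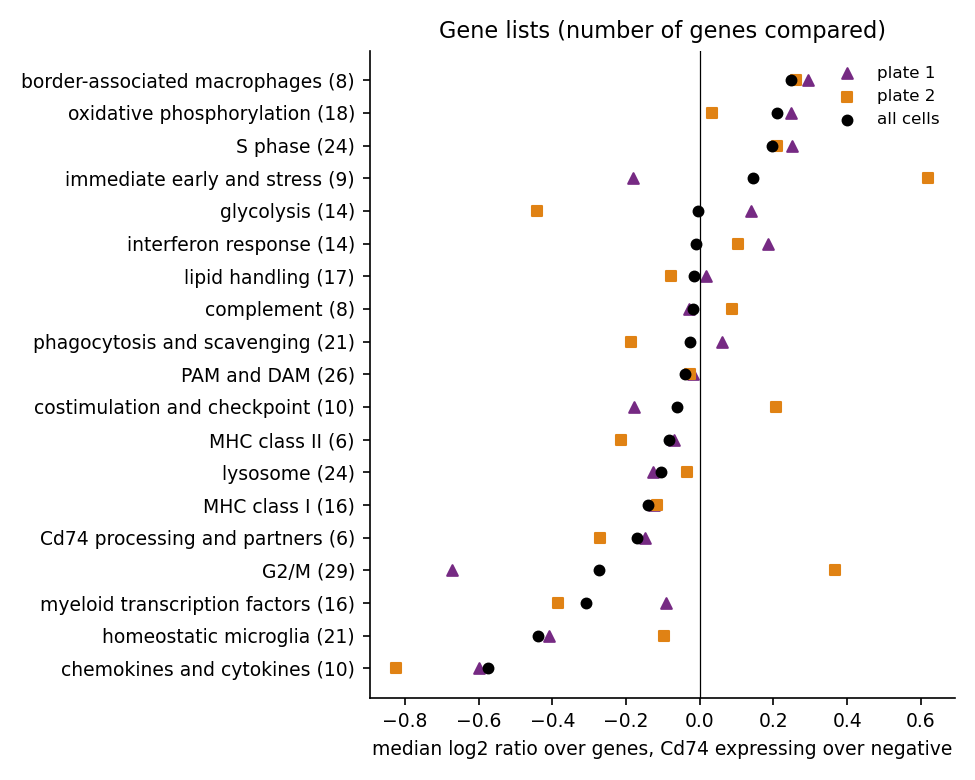
Median log2 ratio, Cd74 expressing over negative cells, of each gene list with 6 or more compared genes, for all cells (black circles), plate 1 (purple triangles) and plate 2 (orange squares), with the number of genes in brackets. Most medians lie within 0.3 of 0, and the chemokine (-0.57) and homeostatic (-0.44) lists are the lowest.

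Among immediate early genes, induced within minutes of a stimulus or of handling, 1 of 9 compared was higher on both plates and 0 were lower. Over all genes 4.63% were higher and 5.81% lower. Ier2 was read in 18 of 45 expressing cells (40.0%, 25.7 to 55.7) and 13 of 92 negative cells (14.1%, 7.74 to 22.95). It was picked as the highest gene of its list, so the gap between those intervals is no support. They overlapped outside the cycling class described below (10.3 to 56 and 3.33 to 21.8). In cells with a middling number of genes they overlapped too (19.4 to 57.6 and 10.6 to 37.6). Pooled, it stood at 58.7 CPM (56.1 to 61.5) against 17.04 (16.1 to 18.05), a log2 ratio of 1.73 (1.89 and 1.34). Where it was read, its median level was 104.03 CPM in expressing and 100.5 CPM in negative cells, so the classes differed in how many cells had a read rather than in the level of those cells. Jun and Junb had opposite signs on the plates, and Fos, too rare for the comparison, was read in 4 expressing and 0 negative cells.

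More of the expressing cells were in a cycling class, cells with at least 6 of 24 S phase genes or at least 8 of 31 mitosis genes at 10 CPM or more. It held 28 of 45 expressing cells (62.2%, interval 46.5 to 76.2) and 42 of 92 negative cells (45.7%, 35.2 to 56.4), which overlap. On plate 1 the shares were 61.3% and 50.8%, and on plate 2 they were 64.3% and 35.5%. The gap lay in cells that met the S phase limit alone, 40.0% against 22.8%, whereas the mitosis limit was met by 22.2% and 22.8%. Of 24 S phase genes, 3 were higher and 1 lower on both plates, with a median of 0.19. Over all genes 4.63% were higher and 5.81% lower. Cdc45, a subunit of the replicative helicase, was higher at 1.5, Cdt1, which loads the helicase, at 0.90, and Rfc2, a clamp loader subunit read in 73.3% and 54.3% of cells, at 0.76. Cdc6, another loading factor, was lower at -0.83. Of 29 mitosis genes, 0 were higher and 1 lower, Cenpf, and the median was -0.67 on plate 1 and 0.37 on plate 2. In the 17 expressing and 50 negative cells outside the cycling class, Cdc45 stood at -0.12 and Cdt1 at -1.43, so their sign turned. Both genes count toward the S phase limit that sets the class, so their values outside it depend on how it was set. The part of cell cycling in the other differences was not tested.

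Border-associated macrophages of the meninges and vessels are brain cells known for Cd74, and 8 of their 15 markers could be compared. Of these, 2 were higher on both plates and 0 lower, with a median of 0.25 (0.29 and 0.26). Over all genes 4.63% were higher and 5.81% lower, and 7.97% of genes read in 10% to 25% of cells were higher. Cbr2, a carbonyl reductase of tissue macrophages (chromosome 11, 120729489 to 120732114, minus strand, mm10), was read in 10 of 45 expressing cells (22.2%, interval 11.2 to 37.1) and in 3 of 92 negative cells (3.26%, 0.678 to 9.23). It was read in 7 of 31 against 2 of 61 cells on plate 1 and in 3 of 14 against 1 of 31 on plate 2, and its log2 ratio was 3.39. Cbr2 was among the genes picked for a same-sign ratio on both plates, so the like direction on each plate is no support. Its intervals overlapped on plate 1 (9.59 to 41.1 and 0.40 to 11.3). On plate 2 they overlapped too (4.66 to 50.8 and 0.0816 to 16.7). The highest expressing cell held 35.9% of the class's Cbr2 level, and none of the 10 cells with the most Cd74 had a read of it.

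The other marker higher on both plates was Pf4, given above. Mrc1, the mannose receptor, was read in 29 of 45 and 48 of 92 cells with a log2 ratio of 0.17, Stab1, a scavenger receptor, in 42 and 78 cells with -0.05, and Folr2, a folate receptor, in 39 and 61 cells with 0.37. Lyve1, Cd163 and Cd209f, which are on the same marker list, had no count in any cell of either class. The markers' summed level ran from 294 to 4424 CPM in expressing cells (median 1493) and from 18.98 to 4417 CPM in negative cells (median 1385). Of the 10 expressing cells with Cbr2, 8 had reads of Mrc1, 10 of Stab1 and 10 of Folr2. In the same 10 cells, 9 had reads of Dab2, 2 of Pf4 and 1 of Ms4a7, with Dab2 and Ms4a7 also border markers. Over all 45 expressing cells, Mrc1 was read in 64.4%, Stab1 in 93.3% and Folr2 in 86.7%. The shares were 95.6% for Dab2, 24.4% for Pf4 and 28.9% for Ms4a7. With 10 cells, the share of each marker may be that of the class. The part of such macrophages in the result was not tested.

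Cnp, a myelin gene, was read in more of the expressing cells on each plate. Of the oligodendrocyte markers, 3 of 10 could be compared and 2, Cnp and Mbp, were higher on both plates, with a median log2 ratio of 1.27. Over all genes 4.63% were higher, and the share was 7.97% of genes read in 10% to 25% of cells and 4.44% of those read in 25% to 50%. Cnp encodes an enzyme of the myelin sheath and was read in 26 of 45 expressing cells (57.8%, interval 42.2 to 72.3) and 24 of 92 negative cells (26.1%, 17.5 to 36.3). The shares were 58.1% and 26.2% on plate 1 and 57.1% and 25.8% on plate 2. Where read, Cnp lay at a median of 202 CPM in expressing and 187.3 CPM in negative cells, and pooled at 118.1 CPM (114.4 to 121.96) against 46.02 (44.4 to 47.7), a log2 ratio of 1.34. The highest single expressing cell held 11.6% of the level.

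The Cnp difference was there in each alternative that was run, from 1.04 in cells with a middling number of genes to 1.58 on plate 2 alone. Cnp was among the genes picked for a same-sign ratio on both plates, and the alternatives reused the same cells. The like direction on each plate and in each alternative is therefore no support. After thinning to equal depth Cnp was read in the same 57.8% and 26.1% of cells. Outside the cycling class it was read in 8 of 17 and 13 of 50 cells, with overlapping intervals (23 to 72.2 and 14.6 to 40.3). The intervals also overlapped in cells with a middling number of genes (42.4 to 80.6 and 22.1 to 53.1). Mbp, myelin basic protein, was read in 9 of 45 and 9 of 92 cells with a log2 ratio of 1.27, which was -0.30 outside the cycling class. Mag, a myelin adhesion protein, was read in 7 and 7 cells with 0.20 (0.71 and -0.77). Mog, Mobp, Cldn11, Olig1 and Pdgfra had no count in either class, and Olig2 was read in 1 negative cell. The list's summed level ran from 0 to 629.4 CPM in expressing cells and from 0 to 581.1 CPM in negative cells. Any of Cnp, Mbp and Mag was read in 34 of 45 and 32 of 92 cells, most of them through Cnp (26 and 24 cells). At least 2 of these genes were read in 8 expressing and 8 negative cells. Of the 26 expressing cells with Cnp, 4 had reads of Mbp and 4 of Mag. Of the 24 negative cells with Cnp, 2 had reads of Mbp and 4 of Mag. The part of oligodendrocyte RNA in these differences was not tested.

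Many defining markers of other cells that could carry Cd74 had no count. Of 14 dendritic cell markers, Flt3, Clec9a, Cd209a, Ccr7, Ciita and Klrd1 had no count, and the list's summed level ran from 0 to 2885 CPM in expressing and from 0 to 1431 CPM in negative cells, most of the pooled level being Siglech and Naaa, which microglia share. Of 6 B cell markers in the table, Cd79a, Ms4a1 and Pax5 had no count, while Cd79b, a B cell receptor subunit, was read in 13 of 45 and 37 of 92 cells at a log2 ratio of -1.02. All 9 T and NK cell markers had no count. Of 12 monocyte markers, Ly6c2, Ly6c1, Plac8 and Chi3l3 had no count, and Ccr2 was read in 0 and 2 cells. Lyz2, a lysozyme that microglia share, was read in every cell and made up most of that list's sum, 118.9 to 4511 CPM in expressing and 639 to 5807 CPM in negative cells.

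Across all genes, the difference between the Cd74 classes on plate 1 said little about that on plate 2. Of the 7214 genes compared, 334 were at least 1.5-fold higher in expressing cells on both plates (4.63%) and 419 at least 1.5-fold lower (5.81%). On plate 1 alone 1138 were higher and 1294 lower, and on plate 2 alone 1694 and 1791. Of the genes higher on plate 1, 29.3% were also higher on plate 2 (19.7% of the genes higher there) and 30.1% were 1.5-fold lower there. Of the genes lower on plate 1, 32.4% were lower on plate 2 (23.4% of those) and 28.5% higher. The same direction on both plates, at any size, was found for 3605 genes, or 50% of them. Across genes, which are not independent, the Pearson correlation of both plates' ratios was 0.015, and the plates share no cell.

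**Figure D4:**
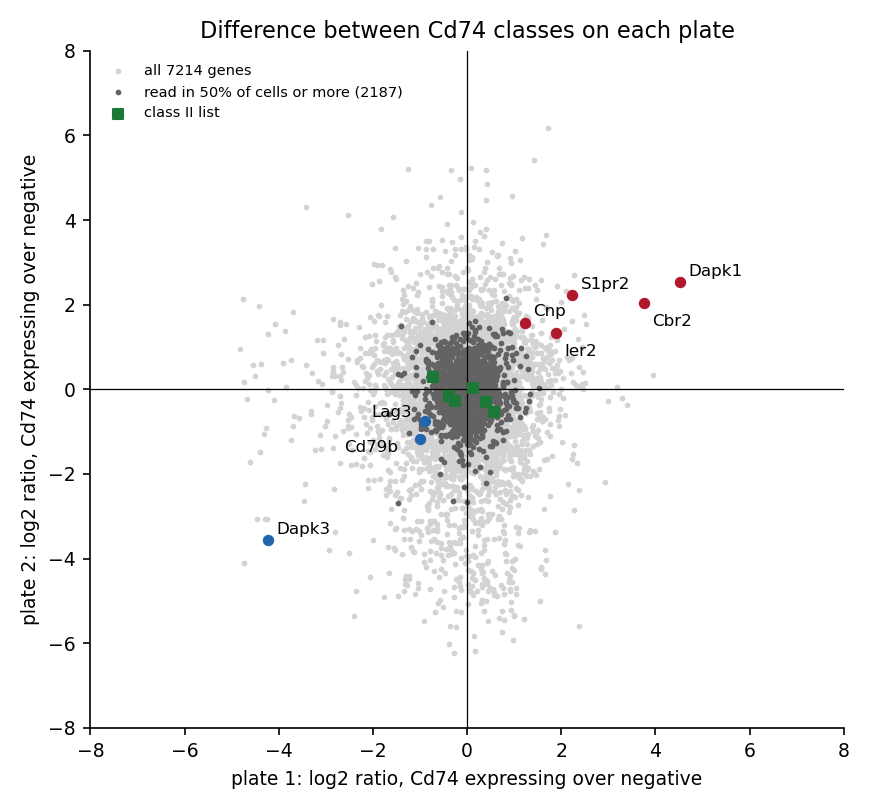
Log2 ratio of each compared gene, Cd74 expressing over negative cells, on plate 1 (horizontal) and plate 2 (vertical). Light grey points are all 7214 genes, dark grey those read in at least 50% of cells (2187), green squares the 6 compared class II genes, and labelled points are genes named in the text (red higher, blue lower). The cloud is centred near 0 and has no slope (r = 0.015).

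How often a gene passed the limit depended on how widely it was read. Of 2547 genes read in 10% to 25% of cells, 18.5% passed 1.5-fold on both plates in 1 direction. The share was 9.56% among 2480 genes read in 25% to 50%, and 3.41% among 1201 genes read in 50% to 75%. It was 0.452% among 442 genes read in 75% to 90%, and 0.368% among 544 genes read in 90% or more. Rare genes thus made up most of the list. Among the most widely read genes, 54.96% had the same direction on both plates and the correlation was 0.16.

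**Figure D5:**
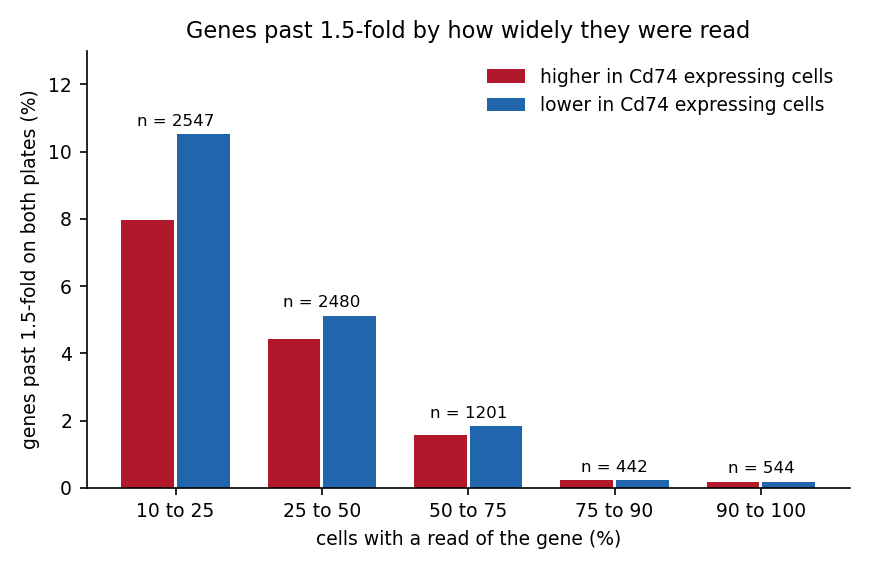
Percent of genes at least 1.5-fold higher (red) or lower (blue) in Cd74 expressing cells on both plates, by the share of all cells with a read of the gene, with the number of genes above each pair of bars. Higher and lower genes both decline from 7.97% and 10.5% of genes read in 10% to 25% of cells to 0.184% each of genes read in 90% or more.

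The genes with the largest ratios on both plates were all rarely read. The 12 leading higher genes were read in 10.5% to 27.3% of cells, and the highest cell held 15.0% to 47.1% of the class's level. Dapk1, a kinase that promotes cell death and autophagy, was read in 12 of 45 expressing cells (26.7%, interval 14.6 to 41.9) and 6 of 92 negative cells (6.52%, 2.43 to 13.7), with a log2 ratio of 3.87 (4.52 and 2.53). S1pr2, a receptor for sphingosine 1-phosphate, was read in 13 of 45 (28.9%) and 8 of 92 cells (8.70%), with 2.24 (2.23 and 2.23). Nlrc3, a receptor-family protein that restrains innate signalling, was read in 14 and 11 cells with 2.01. Each was read in a larger share of the expressing cells, and most cells of either class had no read.

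The other leading higher genes had little in common by role. They were Cbr2, Ssx2ip (a centrosome protein, 2.40), 1110018J18Rik (2.17), Pms1 (a mismatch repair protein, 2.07), Lca5l (2.11), Gemin4 (a part of the complex that builds spliceosome particles, 2.67), Hif1an (the oxygen sensor that inhibits HIF, 1.76), Oma1 (a mitochondrial stress protease, 1.76) and Rmnd5a (a ubiquitin ligase subunit, 2.13). Oma1 was the most widely read of these, in 17 of 45 and 20 of 92 cells.

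The 12 leading lower genes were read in 10.5% to 18.2% of cells. Dapk3, a kinase of the same family as Dapk1, was read in 3 of 45 expressing cells (6.67%) and 22 of 92 negative cells (23.9%), at 1.67 against 41.1 CPM, a log2 ratio of -3.98 (-4.24 and -3.57). The others reported were Adck5 (-4.58), Slc17a9, a carrier that loads nucleotides into vesicles (-4.05), Fam126b (-3.99), Rcor3, a corepressor subunit (-3.21), Zfp280c (-3.13), Crtc1, a coactivator of CREB (-3.06), Nhlrc2 (-2.81), Rnls (-2.72), Zmat3, an RNA-binding p53 target (-2.62), and Csrp2bp, an acetyltransferase subunit (-2.60). With 1 to 5 expressing cells reading each of these 10 and Dapk3, a lower value means few cells with a read.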

How the data were processed

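The deposited table gives unnormalized read counts (whole numbers) in each cell for 23337 genes and 92 spike-in RNAs, made by the authors. Per the submitters' processing notes, reads were handled with HTSeq, Picard, STAR 2.5.3a and Trim Galore 0.4.3 on the mm10 build; the annotation and the strand setting are not given in the sources used here, so near-identical and overlapping genes are uncertain. Total counts ran from 271190 to 1226521 per cell. All 143 cells were used, with no doublet caller. They are 1 group from pooled animals on 2 plates, so no test was run and no p-value is given.

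Counts were turned into CPM of gene counts (spike-ins left out). For each Cd74 class, counts were summed over cells, scaled to CPM, and log2 ratios taken with 1 added, over all cells and on each plate, for genes with a pooled level of at least 10 CPM and a read in at least 10% of cells, Cd74 left out. A gene was counted when past 1.5-fold in the same direction on both plates. Intervals are exact, at 95%, for counting error only. Scripts were tested on simulated data. The alternatives covered the Cd74 limit, scaling (spike-ins, Rn45s left out, TMM factors of edgeR 4.0.16 in R 4.3.3 on summed counts), pseudocounts of 0.1 and 5, filters, mean CPM, the highest cells, thinning, genes detected, the cycling class and plates. "A middling number of genes" means 2820 to 3620 genes with a count.

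Named genes are Cd74, the gate genes and all class II and invariant chain partner genes, the 12 leading genes each way by the smaller of both plates' ratios of the same sign, up to 2 highest and 2 lowest of each other list, and markers of other cells read in over 20% of expressing cells. Other genes named beside a list were chosen after their values were seen. Results of a few genes under these rules are not reported here. The classes, lists and rules were chosen with earlier results of these data known. Python 3.11.15 with numpy 2.4.6, pandas 2.3.3 and scipy 1.17.1 was used. Positions are from GENCODE on mm10.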

Additional observations from a re-analysis of the deposited data

How the results depend on the processing

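No paired analysis was possible because all cells are 1 group, and replicate numbers only name the cells. The counts of genes past 1.5-fold on both plates stayed within 1.5 times of 334 higher and 419 lower when cells with any Cd74 count or with 50 CPM or more were taken as expressing, with Rn45s left out, with spike-in or TMM scaling, with both pseudocounts, with the mean of CPM per cell, with thinned cells and in cells with a middling number of genes. With expressing cells at 100 CPM or more (11 cells) they were 502 higher and 1065 lower (6.96% and 14.8% of the genes compared), and with no filter on low values 677 and 995 (5.29% and 7.77%). For genes read in 25% of cells or more the shares were 2.81% and 3.24% of 4667, and for those in 50% or more, a filter chosen after seeing the data, 0.960% and 1.1% of 2187. Outside the cycling class 568 and 880 passed (7.87% and 12.2%), on plate 1 alone 15.8% and 17.9%, and on plate 2 alone 23.5% and 24.8%. With the highest cell of each class and plate left out for each gene, 249 were higher and 810 lower (11.2%). Leaving out 1 cell takes a larger part of the expressing class, which has fewer cells. The median of all genes was then -0.09. Scaling to spike-ins moved the median of all genes to 0.15, and 61.3% of the genes past the limit were then higher (456 and 288), beside 44.4% as reported and 23.5% without the highest cells.

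The class II median of -0.08 was -0.29 with expressing cells at 50 CPM or more, -1.93 at 100 CPM, 0.085 with spike-in scaling (below the 0.15 of all genes), -0.34 with no filter, 0.082 for genes read in 25% of cells or more, 0.082 for those in 50% or more, -0.35 without the highest cells, -0.19 with thinned cells, -0.82 in cells with a middling number of genes, -0.46 outside the cycling class and -0.21 on plate 2. Under both of these read filters, the value of 0.082 is the ratio of Ifi30, which is not a class II chain. Without the highest cells, the median of all genes was -0.09. The share of expressing cells with a class II chain was 17.8%. It was 0% at 100 CPM or more (0 of 11 cells) and 5.88% outside the cycling class (1 of 17 cells). Signs turned for Cbr2 (-1.41), Nlrc3 (-0.77), Ssx2ip (-0.21) and Cenpf (0.22) at 100 CPM, for Cdt1 in cells with a middling number of genes (-0.69), and outside the cycling class for Cdc45 (-0.12), Cdt1 (-1.43) and Mbp (-0.30). These settings leave fewer cells or genes, and Cdc45 and Cdt1 count toward the limit that sets the cycling class. The cause was not tested further. A gene at 0 in 45 cells could be read in up to 6.67% of them (taken as 3 cells, or 7.87% by the exact interval), which limits what can be said of rare genes.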

Other observations

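Few widely read genes separated the Cd74 classes on both plates, and these were chosen after their values were seen. Of the 442 genes read in 75% to 90% of cells and the 544 read in more, 4 passed 1.5-fold on both plates. Lrrc58, a leucine-rich repeat protein, had a median of 80.04 CPM in expressing and 10.0 CPM in negative cells, with a log2 ratio of 0.97 (0.95 and 1.01), and was read in 95.6% and 95.7% of cells. Iqgap1, a scaffold of the actin cytoskeleton, had medians of 257.6 and 137.5 CPM and a ratio of 0.80 (0.63 and 1.25). Dynlt1b, a dynein light chain, had medians of 11.11 and 17.1 CPM and a ratio of -0.67 (-0.61 and -0.84). Rgs2, a regulator of G protein signalling, had medians of 88.3 and 143.9 CPM and a ratio of -0.72 (-0.76 and -0.61). For each of the 4, the cells of both classes overlapped.

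Among genes read in 50% to 75% of cells, those lower on both plates included Slc11a1, an iron and manganese carrier of phagosomes, with medians of 147 and 247.9 CPM and a log2 ratio of -0.75. Tnfaip8l2, a brake on innate immune signalling, was read in 20 of 45 and 55 of 92 cells, with -0.93. Over all 2187 genes read in 50% of cells or more, 21 were higher and 24 lower on both plates.

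Expressing cells were spread over the plates. Each plate row held 2 to 6 of them on plate 1 and 2 to 5 on plate 2, and each plate column held 0 to 5 and 0 to 2. Of 48 well positions in use on both plates, 7 held an expressing cell on both.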
